A study of Mus musculus with 6 samples.

Results

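The genes described here are 41 genes of DNA replication and mitosis, listed by symbol: 27 that act in or before DNA synthesis and 14 that act in mitosis. They are set against 18193 genes that had a probe set of their own on the array. Each gene was represented by its brightest probe set, meaning the probe set (a group of short probes for 1 transcript) with the highest mean signal over all arrays. Such a probe set was found for 40 of the 41 genes, and cyclin B1 (Ccnb1) was not analysed here. Ventricle RNA from each of 6 mice was measured on an Affymetrix array of its own. All 6 animals were Rag2 knockouts, which cannot assemble antigen receptor genes and so form no mature T or B lymphocytes. They formed 3 littermate pairs, here A, B and C, each of an animal with intact Trex1 (Trex1 WT) and one that lacked it (Trex1 KO). Values by animal are given in that order of pairs throughout. Trex1 is a DNA exonuclease that degrades DNA in the cytosol. Neither age, strain and sex nor the way either allele was made is given in the sources used here.

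Cells copy their DNA in S phase and divide it in M phase. Before S phase, Cdc6 and Cdt1 load the ring of Mcm2 to Mcm7 onto replication origins, and Cdc45 and the GINS proteins turn that ring into the working helicase. The genes of S phase are driven by E2F transcription factors, and those of mitosis rise later in the cycle through the MuvB, B-Myb and FoxM1 proteins. Most muscle cells of the adult ventricle have left the cell cycle, while other cells of the heart can still divide. In whole tissue, fewer cells of a type and less RNA per cell cannot be told apart.

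The Trex1 signals matched the labels of the arrays, and the Rag2 genotype was not checked. The Trex1 probe set, which the platform annotation assigns to Trex1 and Atrip together, had signals of 714, 340 and 887 in Trex1 WT and 9.45, 20.6 and 34.2 in Trex1 KO. Cardiomyocyte markers were bright, with all 8 above the highest bacterial control (a signal of 69.8) on every array. Of 6 T and B lymphocyte markers, 4 were above it on no array, Cd8a on 3 arrays and Ms4a1 on 1. Among all 18193 genes, 3948 were above it on no array. The Actb 3' to 5' ratio, a measure of RNA integrity, was 1.8 to 2.29 in Trex1 WT and 1.6 to 1.68 in Trex1 KO, which did not overlap. The same ratio of Gapdh overlapped, at 0.85 to 0.925 and 0.841 to 0.885. The signal of 18S ribosomal RNA was 12811, 13708 and 924 in Trex1 WT and 2834, 1907 and 798 in Trex1 KO, lower in each Trex1 KO animal than in its littermate.

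No replication or mitotic gene passed the test, while the 2 classes lay at different places in the distribution of differences. Of 33 members bright enough to test, 0 were higher and 0 lower in the Trex1 knockouts at an adjusted p under 0.05 (limma, adjusted by Benjamini-Hochberg over all tested probe sets), against 0.312% of 12808 tested genes that were higher and 0.039% that were lower. With the littermate pair as a block, 0 members were higher and 0 lower, against 0.531% and 0.0937% of genes. At an unadjusted p under 0.05 in limma without the block, 2 members (Cdt1 and Ube2c) were higher and 0 lower. Of all tested genes, 5.36% lay past that value in either direction. With the block, the unadjusted limma p was 0.0247 for Mki67, 0.0286 for Ube2c and 0.0486 for Cdt1. It was above 0.05 for the other tested members, and the share of all genes was not counted for that fit. The smallest adjusted p among the members was 0.89 in limma without the block and 0.521 with it, and it stayed at or above 0.412 under each of 18 other settings. In 9 of these settings arrays were left out, and a call is harder to reach with fewer animals. Differences are given as Trex1 KO minus Trex1 WT on the log2(signal + 16) scale.

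Over all members with a probe set, tested or not, the 27 replication genes had a median log2 difference of 0.04, with 17 above 0 and 10 below. The 13 mitotic genes had a median difference of 0.40, with 13 above 0 and 0 below. Over all 18193 genes the median was -0.02 and 46.3% lay above 0. The mitotic median was 0.22, 0.34 and 0.45 in littermate pairs A, B and C, and the replication median was 0.03, 0.06 and 0.14. The replication median was -0.04, -0.0057 and -0.0099 without Trex1 KO B, Trex1 KO C and both animals of pair C, so its direction depends on these animals. In a fit that also held the Actb ratio, the mitotic median was 0.22, with 11 of 13 above 0, and the replication median 0.13. The part of RNA integrity in these shifts was not tested.

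**Figure D1:**
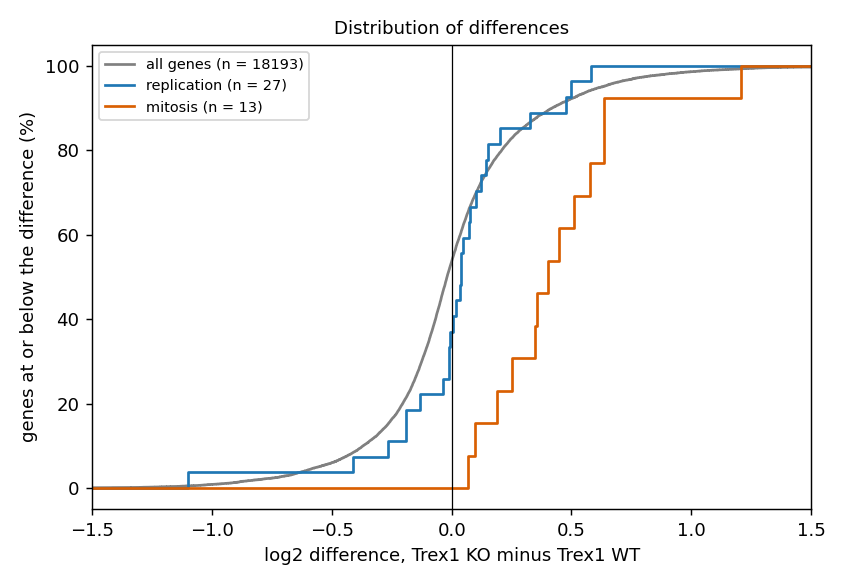
Cumulative distribution of the log2 difference (horizontal axis, Trex1 KO minus Trex1 WT) over all 18193 genes, the 27 replication genes and the 13 mitotic genes with a probe set; the vertical axis gives the percent of genes at or below each difference. The mitotic line starts to rise above 0, with a median of 0.40, and the replication line crosses 50% near its median of 0.04.

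Seen array by array, the mitotic genes were high in Trex1 KO B and C and low in Trex1 WT A and C. For each gene the deviation from its own mean over the 6 arrays was taken, and the median over the 13 mitotic genes was -0.29, -0.06 and -0.21 in Trex1 WT and -0.04, 0.45 and 0.34 in Trex1 KO. Each Trex1 KO animal lay above its littermate, and Trex1 KO A and Trex1 WT B lay close together. The same median over the 27 replication genes was -0.07, 0.10 and -0.01 in Trex1 WT and -0.13, 0.18 and 0.11 in Trex1 KO. For these genes the groups overlapped, and both animals of pair A lay lowest. Over all genes it stayed between -0.02 and 0.02 on every array. These medians describe a chosen list and carry no test.

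**Figure D2:**
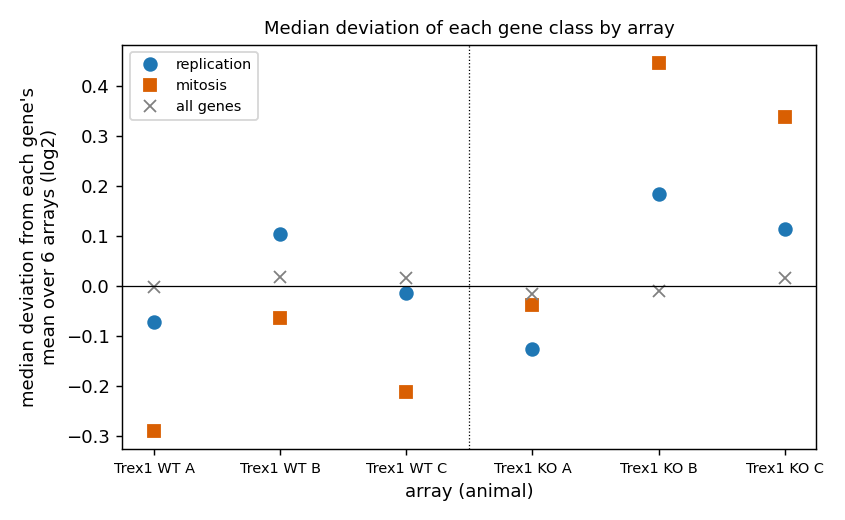
Median deviation from each gene's mean over the 6 arrays (vertical axis, log2), for the 27 replication genes, the 13 mitotic genes and all genes, by array (horizontal axis). The mitotic medians run from -0.29 in Trex1 WT A to 0.45 in Trex1 KO B, while those of all genes stay near 0.

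The intervals of the fit without the littermate block set how large a difference could have been missed in that fit. For 11 of 22 tested replication genes the 95% interval of limma lay within a 1.5-fold change in either direction, and for 21 of 22 within a 2-fold change, the exception being Pole. For the 11 tested mitotic genes these counts were 0 and 6. Among all tested genes 58.5% and 85.8% lay within these limits. Standard errors of the log2 difference ran from 0.13 to 0.30 for replication and from 0.18 to 0.38 for mitotic genes. Of the 40 members, 27 were above the highest bacterial control on all 6 arrays, and Gins2, Tyms and Bub1 were above it on none.

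**Figure D3:**
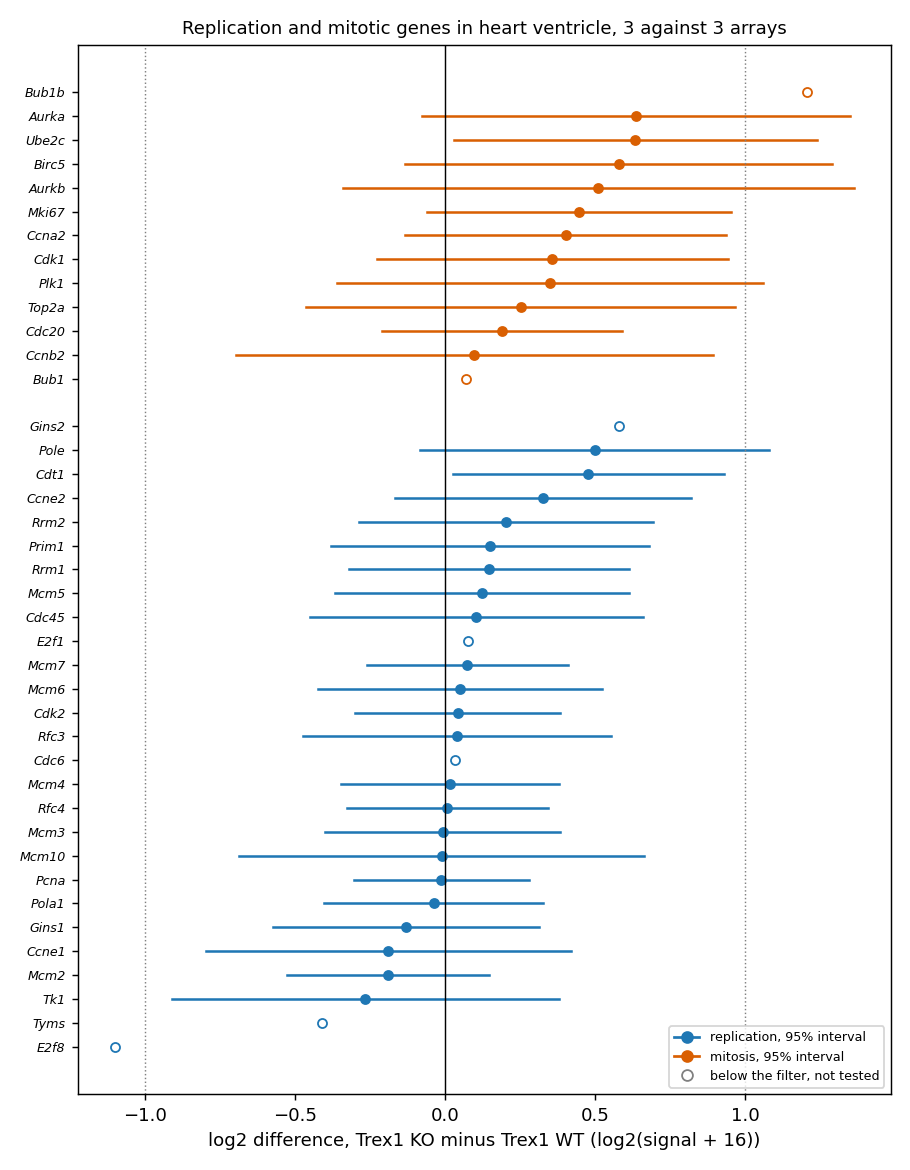
Log2 difference (horizontal axis, Trex1 KO minus Trex1 WT) of each of the 40 members with a probe set, with its 95% interval from limma as a line; open circles are the 7 members below the filter, which were not tested, and dotted lines mark a 2-fold change. In this fit, which is without the littermate block, the intervals of Cdt1 and Ube2c lie just above 0 and those of the other 31 tested members include it.

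The genes of the Mcm2 to Mcm7 ring, the core of the replicative helicase, showed no difference past the test. Their brightest probe sets were above the highest bacterial control on all 6 arrays. Mcm7 had signals of 875, 1117 and 926 in Trex1 WT and 922, 935 and 1226 in Trex1 KO. The groups overlapped, and the log2 difference of 0.07 had a 95% interval from -0.26 to 0.41 (limma adjusted p = 0.979). Mcm2 read 755, 759 and 761 in Trex1 WT and 822, 576 and 613 in Trex1 KO. Its Trex1 WT animals were nearly alike, while the Trex1 KO animals lay on both sides of them (log2 difference -0.19, interval -0.53 to 0.15, limma adjusted p = 0.955). Mcm4 read 444, 586 and 527 in Trex1 WT and 447, 530 and 600 in Trex1 KO, and Mcm6 read 438, 630 and 600 against 413, 658 and 674. Both subunits were lowest in the 2 animals of pair A, whatever their genotype. Mcm5 was likewise lowest in pair A, with 220 and 226 there and 298 to 360 in the other 4 animals. Mcm3 had a difference of -0.01. The differences of the 6 subunits ran from -0.19 to 0.12. Mcm2, Mcm3 and Mcm7 had other tested probe sets with the opposite sign, all without a call. The widest span was -0.26 to 0.66, among the 4 tested probe sets of Mcm3. The Mcm3 probe set with 0.66 read 106, 68.6 and 72.4 in Trex1 WT and 178, 112 and 128 in Trex1 KO. These groups did not overlap (limma adjusted p = 0.89, and 0.539 with the block).

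Among the factors that load and start the helicase, Cdt1 had the smallest p of the replication genes. Cdt1, which brings the Mcm ring to origins, had signals of 266, 232 and 201 in Trex1 WT and 268, 319 and 413 in Trex1 KO. All Trex1 KO animals lay above all Trex1 WT animals, with hardly a gap between the littermates of pair A. The means were 233 ± 32.8 and 334 ± 73.6 (SD, n = 3), a 1.39-fold ratio (log2 difference 0.48, SE 0.20, unadjusted p = 0.0399, limma adjusted p = 0.89). Its littermate differences were 0.01, 0.44 and 0.99, and the overall difference was 0.22 without pair C. The other tested probe set of Cdt1 gave -0.13, and the mean over its probe sets 0.07. Cdc45, a helicase cofactor, had a difference of 0.10, Gins1 of the GINS complex -0.13, and Mcm10, which activates the helicase, -0.01. The loader Cdc6 was above the highest bacterial control on 1 of 6 arrays and Gins2 on 0, and neither was tested.

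The polymerase machinery showed the same narrow range, apart from Pole. Pcna, the sliding clamp that holds polymerases on DNA, had signals of 3754, 4956 and 3498 in Trex1 WT and 4112, 3900 and 3955 in Trex1 KO. The Trex1 KO animals lay close together inside the Trex1 WT range, and the difference of -0.01 had the narrowest interval of the members, -0.30 to 0.28 (limma adjusted p = 0.997). Pole, the catalytic subunit of the leading strand polymerase, read 115, 71.8 and 74.9 in Trex1 WT and 126, 123 and 133 in Trex1 KO. These groups did not overlap, and Trex1 WT A lay nearer to the Trex1 KO animals than to the other Trex1 WT animals (log2 difference 0.50, SE 0.26, limma adjusted p = 0.955). The clamp loader subunits Rfc3 and Rfc4 had differences of 0.04 and 0.01, the polymerase alpha subunit Pola1 -0.04, and the primase subunit Prim1 0.15. Rfc4 read 410 to 516 over all 6 animals. The other tested probe sets of Rfc4 and Prim1 gave the opposite sign, with -0.17 and -0.08. Over both classes, 15 members had several tested probe sets, and these had the same sign for 8.

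Genes that supply nucleotides and those that govern entry into S phase also overlapped between the groups in most cases. Rrm1, the large subunit of ribonucleotide reductase, read 476, 446 and 359 in Trex1 WT and 349, 614 and 486 in Trex1 KO, and the small subunit Rrm2 read 194, 215 and 170 against 173, 285 and 226. Both were highest in Trex1 KO B, with differences of 0.15 and 0.20. Thymidine kinase 1 (Tk1) had a difference of -0.27, and thymidylate synthase (Tyms) was not tested. Ccne2, a cyclin that drives Cdk2 at the start of S phase, read 130, 102 and 134 in Trex1 WT and 143, 154 and 173 in Trex1 KO. Its groups did not overlap (log2 difference 0.33, SE 0.22, limma adjusted p = 0.955). Its paralogue Ccne1 had a difference of -0.19 and Cdk2 one of 0.04 (interval -0.30 to 0.38). The activator E2f1 read 44.4, 120 and 20 in Trex1 WT and 19.6, 140 and 46.6 in Trex1 KO, high in both animals of pair B. The repressor E2f8 read 74.5, 58.7 and 88.9 in Trex1 WT and 9.81, 28.5 and 46.6 in Trex1 KO. These do not overlap, with a difference of -1.10, but most values lie below the highest bacterial control and the gene was not tested; with a pseudocount of 64 the difference was -0.59. Among tested members the Trex1 KO animals lay all above the Trex1 WT animals for 3 of 22 replication genes (Cdt1, Pole and Ccne2) and all below for 0. For all tested genes these shares were 5.06% and 5.83%.

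On its brightest probe set, each of the 13 mitotic genes had a difference above 0, and none passed the test. With the mean over all probe sets of a gene, 11 of the 13 lay above 0. Ube2c, a ubiquitin-conjugating enzyme that works with the anaphase-promoting complex, had signals of 122, 149 and 93.6 in Trex1 WT and 138, 257 and 206 in Trex1 KO. Trex1 KO B and C lay above all Trex1 WT animals, and Trex1 KO A lay among them. The means were 122 ± 27.6 and 200 ± 59.5 (SD, n = 3), with a log2 difference of 0.63 (SE 0.27, unadjusted p = 0.0415, limma adjusted p = 0.891, and 0.534 with the block). The littermate differences were 0.16, 0.73 and 1.02. Cdc20, which activates the same complex, read 212, 220 and 214 in Trex1 WT and 213, 255 and 279 in Trex1 KO. The Trex1 WT animals differed by little, and Trex1 KO A fell inside their range (log2 difference 0.19, limma adjusted p = 0.959). The other tested probe set of Cdc20 gave -0.14.

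Mki67, the Ki-67 protein used to mark dividing cells, had signals of 222, 367 and 208 in Trex1 WT and 324, 419 and 333 in Trex1 KO. Each Trex1 KO animal was above its littermate, by 0.52, 0.18 and 0.64, and Trex1 WT B lay above 2 of the Trex1 KO animals. The log2 difference was 0.45 (SE 0.23, interval -0.06 to 0.95, limma adjusted p = 0.954, and 0.521 with the block). Without Trex1 WT B it was 0.69 (limma adjusted p = 0.423). Top2a, the topoisomerase that untangles sister chromosomes, read 180, 332 and 113 in Trex1 WT and 204, 264 and 226 in Trex1 KO, so that both the highest and the lowest value were in Trex1 WT. Its difference was 0.25 (interval -0.46 to 0.97). Mki67 and Top2a were both highest among Trex1 WT animals in the animal of pair B.

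The kinase that drives mitosis and its cyclins overlapped between the groups. Cdk1 and Ccna2 were above the highest bacterial control on all 6 arrays and Ccnb2 on 5. Cdk1 read 133, 133 and 216 in Trex1 WT and 181, 171 and 278 in Trex1 KO. The littermate differences were alike, at 0.40, 0.33 and 0.34, and pair C was highest in both genotypes, so the groups overlapped while the pairs did not disagree (log2 difference 0.36, limma adjusted p = 0.955, and 0.688 with the block). Ccna2, the cyclin of S phase and early mitosis, read 157, 121 and 148 in Trex1 WT and 147, 251 and 189 in Trex1 KO (difference 0.40, with 0.24 on its other probe set). Ccnb2, a B-type cyclin, had littermate differences of -0.63, 0.32 and 0.60, and its overall difference was 0.10 (interval -0.70 to 0.89).

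Spindle and chromosome passenger genes were imprecisely measured. Aurka, the kinase of spindle poles, read 44.7, 63.2 and 113 in Trex1 WT and 117, 113 and 120 in Trex1 KO. The Trex1 KO animals were alike, and Trex1 WT C lay at their level (log2 difference 0.64, SE 0.32, limma adjusted p = 0.952). The Aurka difference was 0.39 without Trex1 WT A, 0.93 without Trex1 WT C and 0.0013 once the fit held the Actb ratio, whereas those of Ube2c and Mki67 were then 1.04 and 0.99. Birc5 (survivin), a subunit of the passenger complex, read 76.9, 130 and 70.9 in Trex1 WT and 92.6, 179 and 169 in Trex1 KO (difference 0.58, limma adjusted p = 0.955). Its partner kinase Aurkb was above the highest bacterial control on 1 of 6 arrays (difference 0.51). The other probe set of Aurkb, which was not tested, gave -0.78. Plk1, a kinase of mitotic entry and exit, had littermate differences of 0.68, 0.85 and -0.48. The spindle checkpoint genes Bub1 and Bub1b were too dim to test. Bub1b read 19.1, 9.57 and 28.3 in Trex1 WT and 23.9, 83.9 and 106 in Trex1 KO, where only Trex1 KO B and C exceeded the highest bacterial control. None of the 11 tested mitotic genes had groups without overlap. Of all tested genes, 5.06% had all Trex1 KO animals above and 5.83% had them all below. The same sign in all 3 pairs was seen for 7 of 11 mitotic genes, compared with 5 of 22 tested replication genes and 31% of all tested genes.

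**Figure D4:**
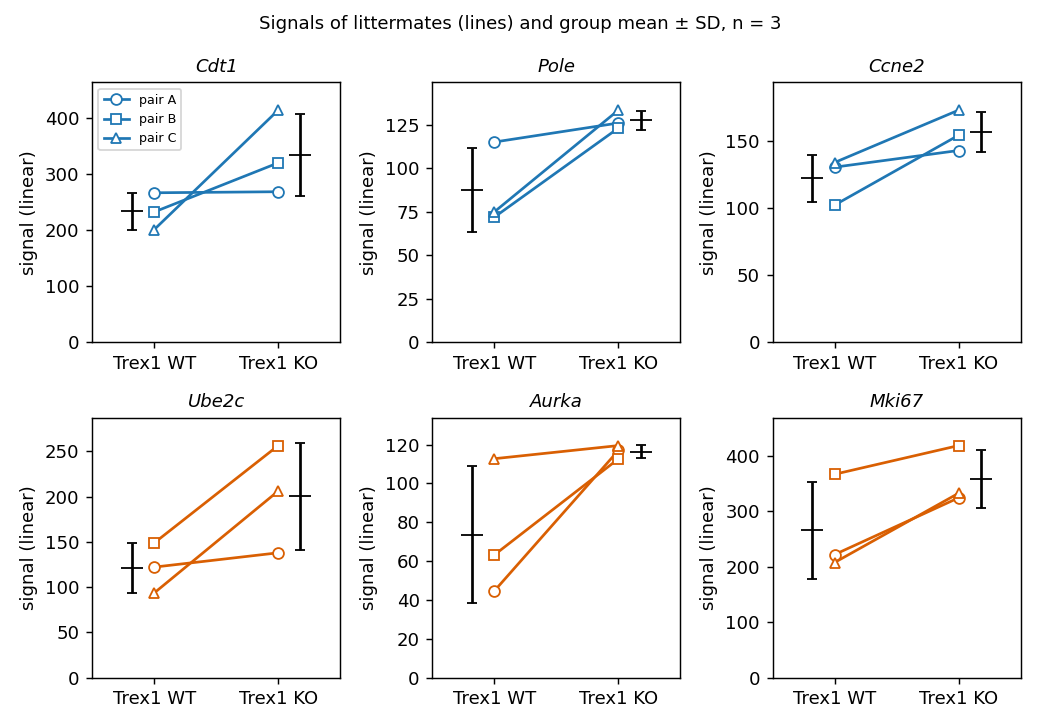
Signals (vertical axis, linear) of the 3 replication genes (blue) and 3 mitotic genes (orange) with the smallest unadjusted p, in Trex1 WT and Trex1 KO, with lines joining littermates and black bars giving mean ± SD of 3 animals. Every line rises, those of Cdt1 in pair A (266 to 268) and Aurka in pair C (113 to 120) the least.

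**Figure D5:**
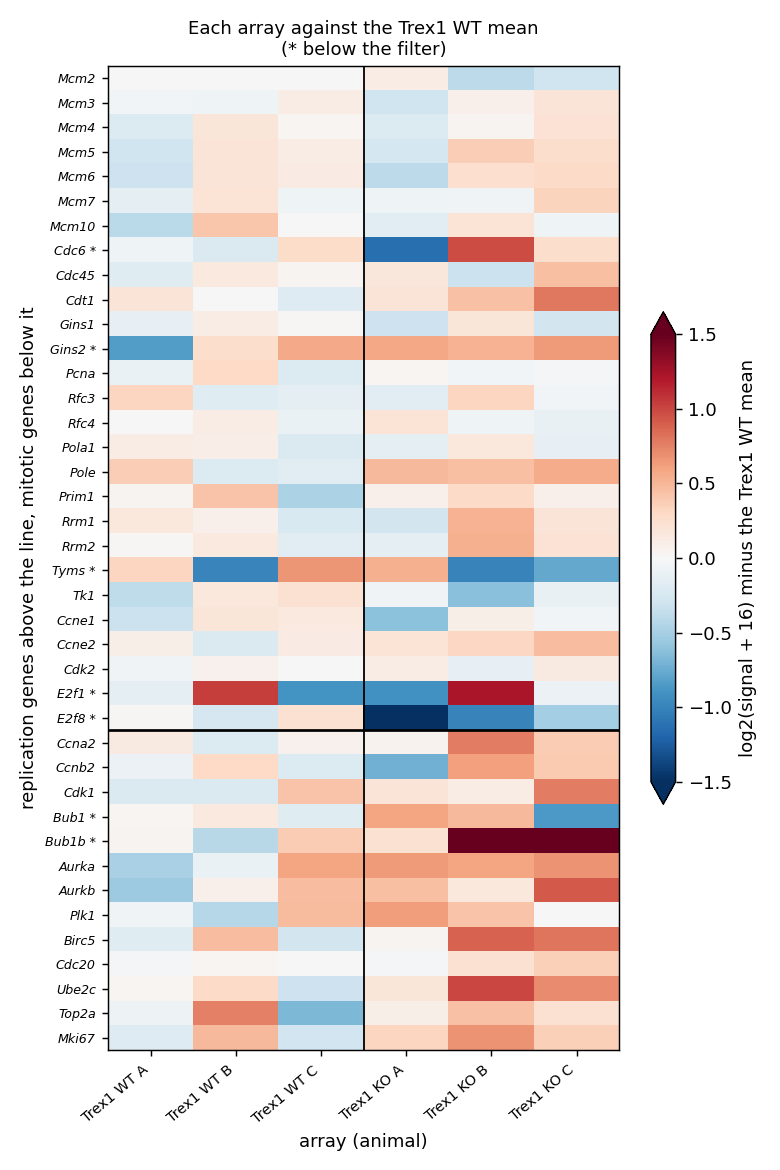
Log2(signal + 16) of each array minus the Trex1 WT mean of the gene (colour, cut at 1.5 in both directions), for the 40 members with a probe set (rows, replication genes above the horizontal line and mitotic genes below it) and the 6 arrays (columns). Trex1 KO B and C are mostly red among the mitotic genes, while the replication rows mix both colours; starred genes, below the filter, vary most.

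The matched promoters of the 2 classes held the elements by which they are known to be timed in different shares, and are shown here because the classes were described apart. RefSeq promoter windows (assembly GRCm38.p6) were matched to 34 of the 41 members, and the 250 bases before the start site were searched on both strands. The E2F element was taken as TTTCCCGC, TTTCGCGC, TTTGCCGC or TTTGGCGC. It was found in 7 of 22 replication and 1 of 12 mitotic promoters, and in 1.91% of 27025 promoters of that length. The CCAAT box, bound by NF-Y, was searched as CCAAT. At least 1 was found in 15 of 22 replication and 11 of 12 mitotic promoters, and in 34.5% of all. Repeated CCAAT boxes were found in 6 of 22 replication and 9 of 12 mitotic promoters, and in 10.5% of all. The cell cycle homology element was taken as TTTGAA or TTCGAA. It was found in 5 of 22 replication and 7 of 12 mitotic promoters, and in 17.4% of all. A match is a description of letters and no evidence of binding, and matches may overlap each other. In the following sequences, read 5' to 3' toward the start site, capitals mark matches to any of these elements. Ube2c, Aurka and Mki67 are the tested mitotic genes with the smallest p, Top2a held the most cell cycle homology matches of the mitotic genes, and Mcm6 held the most E2F matches of the replication genes.
Ube2c, GRCm38.p6 chr2:164769679-164769928, plus strand: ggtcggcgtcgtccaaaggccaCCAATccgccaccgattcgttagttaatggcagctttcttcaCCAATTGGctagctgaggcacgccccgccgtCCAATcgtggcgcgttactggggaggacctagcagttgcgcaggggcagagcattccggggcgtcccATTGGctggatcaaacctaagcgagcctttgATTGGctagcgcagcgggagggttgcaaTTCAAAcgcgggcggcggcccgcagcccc
Aurka, GRCm38.p6 chr2:172370571-172370820, minus strand: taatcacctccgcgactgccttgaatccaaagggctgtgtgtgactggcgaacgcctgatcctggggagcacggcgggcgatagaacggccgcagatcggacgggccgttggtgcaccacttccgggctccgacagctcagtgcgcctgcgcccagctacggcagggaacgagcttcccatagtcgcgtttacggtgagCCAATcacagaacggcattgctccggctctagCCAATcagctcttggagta
Mki67, GRCm38.p6 chr7:135716380-135716629, minus strand: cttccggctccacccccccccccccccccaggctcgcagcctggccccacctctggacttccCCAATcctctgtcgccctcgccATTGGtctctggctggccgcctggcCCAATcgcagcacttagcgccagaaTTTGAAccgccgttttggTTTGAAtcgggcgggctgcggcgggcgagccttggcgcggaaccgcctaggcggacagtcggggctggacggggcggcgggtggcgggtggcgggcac
Top2a, GRCm38.p6 chr11:99024190-99024439, minus strand: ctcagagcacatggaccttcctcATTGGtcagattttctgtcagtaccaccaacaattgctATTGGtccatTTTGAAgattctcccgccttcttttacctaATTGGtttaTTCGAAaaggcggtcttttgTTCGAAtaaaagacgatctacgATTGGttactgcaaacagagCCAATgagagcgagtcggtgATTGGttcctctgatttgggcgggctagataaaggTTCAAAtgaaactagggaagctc
Mcm6, GRCm38.p6 chr1:128359706-128359955, minus strand: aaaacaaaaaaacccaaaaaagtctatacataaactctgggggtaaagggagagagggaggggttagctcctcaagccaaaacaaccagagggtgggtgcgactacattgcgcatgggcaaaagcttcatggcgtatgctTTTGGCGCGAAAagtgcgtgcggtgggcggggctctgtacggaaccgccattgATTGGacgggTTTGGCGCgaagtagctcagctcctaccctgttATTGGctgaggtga

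Ube2c held 6 CCAAT matches and 1 cell cycle homology match 29 bases before the start, Mki67 held 3 and 2, and Top2a held 6 and 4. Aurka held 2 CCAAT matches and 0 of the other elements. Mcm6 held 3 E2F matches, of which 2 overlap on opposite strands, and 2 CCAAT matches. The differences of Mcm6 and Top2a were 0.05 and 0.25, and Cdt1, with 0.48, had 0 matches in its window.

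Other genes of the cell cycle were read from 4 further lists, in which 0 genes passed the test without the block. Of 36 tested other replication genes, 0 were higher and 0 lower, 1 was higher at an unadjusted p under 0.05, and the median over 37 was 0.0023. That gene was Orc1, a subunit of the origin recognition complex, with 113, 124 and 105 in Trex1 WT and 192, 144 and 201 in Trex1 KO (difference 0.57, limma adjusted p = 0.87). Of 36 tested other mitotic genes, 0 were higher and 0 lower, with 3 higher and 1 lower at an unadjusted p under 0.05. The median over 43 was 0.17, with 29 above 0. The smallest p belonged to the kinetochore gene Cenpf, which lay the other way, with 921, 844 and 813 in Trex1 WT and 436, 495 and 736 in Trex1 KO (difference -0.65, SE 0.19, limma adjusted p = 0.559). The 3 higher genes were the kinesin Kif4 (0.96), the cytokinesis regulator Racgap1 (0.71) and the Cdk subunit Cks2 (0.56), all with groups that did not overlap. Of the 36 tested genes of this list, 6 had all Trex1 KO animals above and 2 had them all below. For all tested genes these shares were 5.06% and 5.83%.

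Among 22 tested G1 cyclins, pocket proteins and E2F or MuvB regulators, 0 passed and the median was 0.03. At an unadjusted p under 0.05 in limma without the block, 3 were higher and 1 lower. The higher genes were Ccnd1, Ccnd2 (difference 0.42) and Cdk6 (0.49), and the lower one was Foxm1. Cyclin D1 (Ccnd1), which starts the cycle in response to growth signals, had the smallest p, with 2929, 3382 and 2795 in Trex1 WT and 3903, 4420 and 3500 in Trex1 KO (difference 0.37, limma adjusted p = 0.699). Foxm1, the activator of mitotic genes named above, had 189, 225 and 193 in Trex1 WT and 106, 178 and 86.4 in Trex1 KO (difference -0.70, limma adjusted p = 0.847); it was singled out after its values were seen. Its groups did not overlap and lay in the opposite direction to the means of the mitotic genes. Among 16 tested Cdk inhibitors and checkpoint genes, 0 passed without the block and 1 was higher with it. This was Cdkn1a, which encodes p21, an inhibitor of cyclin-dependent kinases. It had signals of 695, 717 and 556 in Trex1 WT and 1434, 2191 and 1010 in Trex1 KO, without overlap. Its difference was 1.15 (SE 0.24, limma adjusted p = 0.175, and 0.0125 with the littermate pair as a block). The inhibitor p27 (Cdkn1b), singled out after its values were seen, had 1012, 1276 and 1090 against 779, 711 and 865 (difference -0.51, limma adjusted p = 0.442).

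A few immune cell markers, Gzma and S100a9 among them, were high in Trex1 KO B and C, as the mitotic genes were, without passing the test. None of 7 tested natural killer cell markers passed, 6 of 7 lay above 0 and the median was 0.68. Their summed signal was 645 to 1023 in Trex1 WT and 965, 2538 and 1125 in Trex1 KO. The groups overlapped, and the sum was highest in Trex1 KO B, where the mitotic median was also highest. Most of the sum in Trex1 KO B and C came from Gzma, a granzyme of killer cells. It read 329, 537 and 283 in Trex1 WT and 381, 1582 and 649 in Trex1 KO (difference 0.96, limma adjusted p = 0.917). Ncr1, the defining receptor of these cells, read 55.7, 73.7 and 66.5 against 56, 79.4 and 49.4, near the highest bacterial control in both groups. In Trex1 KO C, Gzmb, Klrk1 and Eomes read 74.3, 46.8 and 35.3, each below a Trex1 WT animal. Nkg7 and Prf1 read 93.6 and 176 there, above all Trex1 WT animals. Of 8 tested monocyte and macrophage markers 0 passed, 5 lay above 0, and the summed signal was 6366 to 9729 in Trex1 WT and 6851 to 8826 in Trex1 KO. The smallest p among them was that of the Fc receptor gene Fcgr1, which read 178, 276 and 182 in Trex1 WT and 333, 453 and 294 in Trex1 KO, without overlap (difference 0.73, limma adjusted p = 0.684). The 6 neutrophil markers had 3 differences above 0 and 3 below, with a median of -0.08. Their summed signal was 591 to 751 in Trex1 WT and 414, 1589 and 1210 in Trex1 KO, and most of it came from S100a8 and S100a9. S100a9, with the smallest p, read 230, 221 and 149 in Trex1 WT and 175, 736 and 412 in Trex1 KO (difference 0.89, limma adjusted p = 0.927), high in the same animals as the mitotic genes. The granule genes Elane and Ngp lay the other way, with -1.47 (not tested, groups without overlap) and -0.59, as did the receptor gene Cxcr2, with -0.38 (not tested).

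Markers of the other cell types of the heart passed no test without the block, and the lists differed in sign. The 8 cardiomyocyte markers had a median difference of -0.01 (smallest p Ryr2, with -0.10), and the 7 endothelial markers one of -0.06 (smallest p Tek, with -0.36, groups without overlap). The 7 fibroblast markers had a median of 0.11, with 5 above 0 (smallest p Pdgfra, with -0.32). The 6 smooth muscle and pericyte markers had 5 below 0 and a median of -0.33, with pair medians of -0.49, -0.27 and -0.40. Of these, Cspg4, with the smallest p, and Pdgfrb lay below without overlap (-0.48 and -0.39), and Tagln lay above without overlap (0.43). The summed signal of that list was 28842 to 41454 in Trex1 WT and 25019 to 31638 in Trex1 KO. The 3 erythroid markers with a probe set had a median of 0.07. Alas2, with the smallest p, read 2182, 4471 and 1666 in Trex1 WT and 2320, 4985 and 4034 in Trex1 KO (difference 0.50). Its littermate differences were 0.09, 0.16 and 1.27. Slc4a1 had a difference of 0.07 and Hba-a1 one of -0.04 (not tested). Among atrial markers Nppa, a natriuretic peptide gene that stressed ventricle also expresses, was higher by 0.996, which passed limma with the littermate block (adjusted p = 0.00886) but not without it (adjusted p = 0.126). The 3 adipocyte markers with a probe set had a median of 0.0012. Adipoq had the smallest p of them, with 1.77. Its signals were 23.7, 36.4 and 28 in Trex1 WT and 66.3, 62.5 and 549 in Trex1 KO. Only that of Trex1 KO C exceeded the highest bacterial control. Fabp4 had a difference of 0.0012 and Lep one of -0.49 (not tested). Cd8a, the 1 tested T and B lymphocyte marker, had -0.29. The part of these cells in the mitotic values was not tested.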

How the data were processed

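The authors deposited 1 linear intensity per probe set and array. The submitters' processing notes name MAS5, with version and settings not given in the sources used here. Of 45101 probe sets, 64 are controls. The trimmed mean (2% at each end) was 500 on every array, so the arrays were not normalised again. Groups came from the titles, which spell the gene Tre1 in pair C. Littermate pairs are stated in the series' design text, and littermates deviated together (correlations of 0.151, 0.192 and 0.147 over tested probe sets).

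The scale was log2(signal + 16), and a filter at the 40th percentile of mean values (a signal of 53.8) left 27022 probe sets to test. The test was limma 3.58.1 (R 4.3.3, lmFit and eBayes with an intensity trend, two-sided) on 3 against 3 arrays, with Benjamini-Hochberg adjustment over all tested probe sets, and was checked on simulated data. The spread behind each p-value is that between these 6 animals, and the number of arrays limits the precision. Symbols came from the platform annotation, updated by Entrez identifier with RefSeq's GRCm38.p6 table (34741 matched). Members and lists were chosen with earlier results of these data known. Values by array are given for members with a call, without overlap or among the 3 smallest p of each class, and for further members by role; in each list the gene with the smallest p is named. Probe sets with several symbols named no gene, except that of Trex1. Alternatives were the littermate block, the pseudocount, the filter, the variance trend, quantile normalisation, the Actb ratio, the probe set rule and leaving out arrays or pairs.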

Additional observations from a re-analysis of the deposited data

How the results depend on the processing

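Under each of 18 other settings, the replicate block for littermate pairs included, 0 members were higher and 0 lower in limma. In 9 of them arrays were left out, which makes a call harder to reach. Cdt1, Pole, Ccne2, E2f8, Ube2c, Aurka and Mki67, the genes followed through these settings, kept the sign of their difference, but not its size. With the Actb ratio in the fit, Aurka had 0.0013 and Ccne2 0.075, while the differences of the other followed genes grew. With the mean over probe sets, Cdt1 had 0.074. The smallest adjusted p of any member with the replicate block was 0.521 (Mki67). With the Actb ratio in the fit the median difference was 0.22 for mitotic and 0.13 for replication genes; the cause was not tested. When single arrays or pairs were left out, the mitotic median ran from 0.33 to 0.55 (0.53 without pair B) and the replication median from -0.041 (without Trex1 KO B) to 0.14, with 10 to 13 mitotic and 12 to 20 replication genes above 0. The remaining settings (pseudocounts of 1 and 64, quantile normalisation, the mean over probe sets, and the brightest probe set by mean log2, the last added after seeing the data) kept the mitotic median between 0.30 and 0.44. The counts above 0 under settings other than that of the report were also added after seeing the data. Signal over background limits Cdc6, Gins2, Tyms, E2f1, E2f8, Bub1 and Bub1b, which were not tested.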
